A study of Mus musculus with 8 samples.

Results

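The 10 genes described here are the Notch receptors Notch1, Notch2 and Notch3, the ligands Jag1, Dll1, Dll3 and Dner, the receptor-modifying enzyme Lfng, and the transcriptional targets Hes1 and Hes5. They were found by their gene symbols in the platform annotation of the deposited table. Each was measured by 1 probe, so that they make up 10 of 16390 named genes and 10 of 23473 probes. All 10 probes had a value on all 8 arrays and were tested. The study asked what inhibition of lysosomes does to quiescent neural stem cells (qNSCs). The cells were an NSC line from the ventral telencephalon of mouse embryos of the ICR strain, made quiescent by BMP4 in a medium without EGF for 3 days. They then received fresh quiescence medium, either alone (control) or with 20 nM bafilomycin A (BafA), an inhibitor of the V-ATPase that acidifies lysosomes, and RNA was taken after 4 h or 24 h. The groups were control qNSCs at 4 h, BafA-treated qNSCs at 4 h, control qNSCs at 24 h and BafA-treated qNSCs at 24 h, with 2 single-colour arrays each. All 4 groups had the BMP-induced quiescence and the medium change in common, and no array of cells taken before the medium change was used here. The model is 1 cultured line of embryonic origin. Nothing in the labels or the methods tells whether both arrays of a group carry RNA of separate cultures, so the p-values cover the spread between these samples alone, and that spread may be technical.

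Notch signaling runs between neighbouring cells. A ligand of the DSL family on one cell binds a Notch receptor on the next, the receptor is cut by ADAM proteases and gamma-secretase, and the released intracellular domain (NICD) joins RBPJ in the nucleus and switches on genes of the Hes and Hey families, whose products repress proneural genes. In the brain the pathway keeps neural stem cells from differentiating, and it is used both by quiescent and by proliferating stem cells. An array measures RNA, and so does not show the cleavage of the receptors or the amount of NICD.

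Normalized signals are spot signals with the background corrected and each array scaled to a median of 25. A constant of 50 was added before the scaling, so that dim spots keep a floor and their fold changes are compressed. For dim spots the authors' deposited values, from which the level of the blank spots had been subtracted, are given too. On the 8 arrays, the median gene spot was 1.57 to 1.72 times as bright as the mean blank spot. The 2 arrays of a group are called array 1 and array 2, in the order of their labels. The scanner output holds one pair of gain slopes for control array 1 of 4 h and of 24 h, and another for the remaining 6 arrays, and this is called the scan setting below. Precision is limited throughout by the small number of arrays. Differences are log2 differences between group means from a limma fit over all 20473 probes tested, with p-values adjusted over all of them by the Benjamini-Hochberg method, and a difference passed where the adjusted p was under 0.05.

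RBPJ binds the letters GTGGGAA, of which TGGGAA is the core, and Hes factors bind the N box, CACNAG. The 250 bases before the gene start were searched on both strands for the members that have a promoter entry in RefSeq (GRCm38.p6), which were 9 of the 10 members, with 10 windows. Hes1 has no entry in that table. The 3 windows below are shown because Hes5 is the textbook target of RBPJ, because Lfng was the member that passed in opposite directions at the 2 times, and because Jag1 was the member with the largest difference. Capitals mark GTGGGAA or TGGGAA on either strand, written 5′ to 3′ in the direction of the gene.
Hes5 (chr4:154960673-154960922, + strand): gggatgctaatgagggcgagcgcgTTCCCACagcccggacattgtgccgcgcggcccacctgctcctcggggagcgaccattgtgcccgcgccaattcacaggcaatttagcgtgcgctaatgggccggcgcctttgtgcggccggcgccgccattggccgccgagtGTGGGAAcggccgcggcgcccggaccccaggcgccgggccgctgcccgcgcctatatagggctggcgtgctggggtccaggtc
Lfng (chr5:140607091-140607340, + strand): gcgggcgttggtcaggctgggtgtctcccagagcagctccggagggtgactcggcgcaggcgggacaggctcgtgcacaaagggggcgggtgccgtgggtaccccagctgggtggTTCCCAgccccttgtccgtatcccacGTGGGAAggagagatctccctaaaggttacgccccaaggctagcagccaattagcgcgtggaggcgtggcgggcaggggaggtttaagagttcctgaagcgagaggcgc
Jag1 (chr2:137116521-137116770, - strand): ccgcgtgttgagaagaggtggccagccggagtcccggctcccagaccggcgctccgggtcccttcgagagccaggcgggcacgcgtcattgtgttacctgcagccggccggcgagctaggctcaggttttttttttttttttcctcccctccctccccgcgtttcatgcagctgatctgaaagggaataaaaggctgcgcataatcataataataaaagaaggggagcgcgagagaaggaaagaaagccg
GTGGGAA was found in 2 members, Hes5 and Lfng, and in 5.42% of all 32851 promoter windows of this length. Hes5 held it at bases 83 to 77 before the gene start and, on the other strand, at bases 226 to 220. Lfng held it at bases 109 to 103, with a further TGGGAA on the other strand at bases 135 to 130. The core TGGGAA, which lies inside every GTGGGAA, was in the same 2 members and in 21.6% of all windows. CACNAG was in 5 members (Notch1, Notch2, Notch3, Dner and Lfng) and in 36.7% of all windows. The windows of Jag1, Dll1 and Dll3 held none of these letters. A match describes the letters of the window and was not tested as a binding site.

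At 24 h, BafA-treated qNSCs had more Jag1, Hes1 and Lfng RNA than control qNSCs and less Dner and Dll3 RNA. In all, 5 of the 10 members passed, 3 of them higher (14.6% of all probes passed as higher) and 2 lower (12.8% of all probes; 27.3% in either direction). At 4 h, 1 of the 10 members passed, Lfng, which was lower (1.09% of all probes passed as lower, 1.13% as higher and 2.23% in either direction). The effects of the 2 times differed by the test of the difference for Jag1 and Lfng, both upward, so 2 of 10 members, beside 14.7% of all probes in either direction and 7.38% upward. Between 4 h and 24 h in control qNSCs, Hes1 and Dll3 rose, so 2 of 10 members, beside 33% of all probes in either direction and 18.8% upward. By a ratio of at least 2 in the deposited values, with no test, 3 members stood out at 24 h (Jag1, Hes1 and Dll3; 9.75% of all probes) and 1 at 4 h (Jag1; 0.923% of all probes). The median log2 difference of the members was -0.015 at 4 h and -0.021 at 24 h, and that of all probes was 0.012 and 0.021. The comparisons at 4 h, at 24 h and over time share control arrays and are not independent of each other. In RNA of whole cultures, fewer cells of a type and less RNA per cell cannot be told apart.

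**Figure D1:**
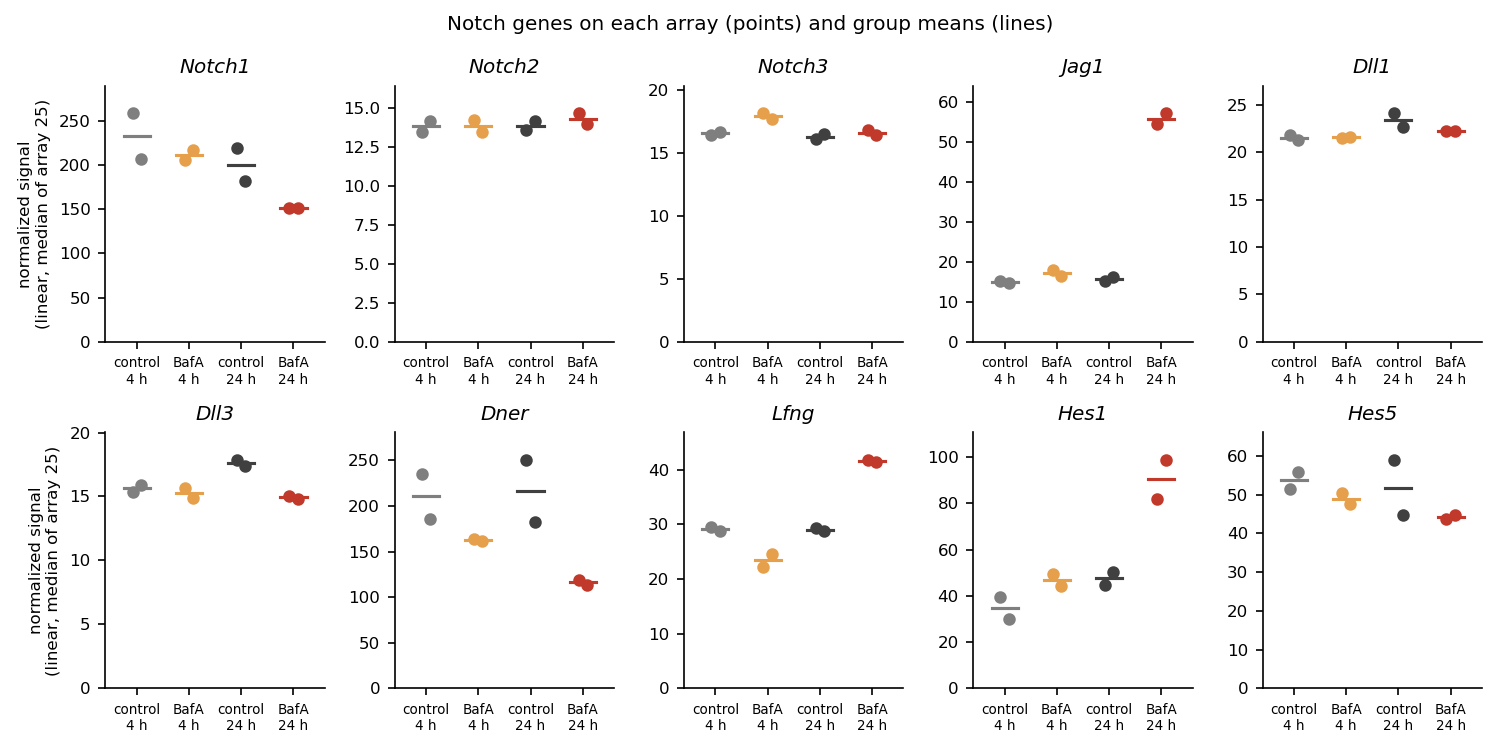
Normalized signal (linear, each array scaled to a median of 25) of the 10 Notch genes in the 4 groups, with 1 point per array and a line at the group mean, each panel on its own axis from 0. Jag1 stood at 54.7 and 57.2 in BafA-treated qNSCs at 24 h and between 14.6 and 18.1 on the other 6 arrays.

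Of the receptors, none passed in any comparison in the limma fit described above. An unadjusted limma p under 0.05 was found for Notch1 at 24 h (0.0199), as for 35.4% of all probes. It was also found for Notch3 at 4 h (0.0413), as for 9.9% of all probes. Notch1 (probe M300005379), the receptor whose cleaved form drives most Notch signaling in neural stem cells, had normalized signals of 258.5 and 207.2 in control qNSCs at 4 h, 206.2 and 217.6 with BafA at 4 h, 219.1 and 182.2 in control qNSCs at 24 h, and 151 and 151.8 with BafA at 24 h. Both BafA arrays of 24 h were below all other arrays, while the other 3 groups overlapped. Groups did not overlap for 7 of the 10 members at 24 h (57.1% of all probes), for 6 at 4 h (38.1%) and for 3 between the control times (62.2%). The difference of Notch1 at 24 h was -0.40 ± 0.16 (SE, n = 2 arrays per group, limma adjusted p = 0.0676), and -0.27 within the scan setting of the 6 arrays. It passed under some settings, among them the deposited values (adjusted p = 0.0369) and quantile normalization (0.0176). With the scan setting as a block it was -0.25 and did not pass (limma adjusted p = 0.335). On leaving out each array in turn it ranged from -0.53 to -0.27. At 4 h it was -0.13 (adjusted p = 0.951), and the change over time in control qNSCs was -0.21 (adjusted p = 0.354). That change over time also passed with quantile normalization (limma adjusted p = 0.0231). The direction at 4 h turned to 0.03 without control array 1.

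Notch2 (probe M300005826), a receptor that is known to hold adult neural stem cells in quiescence, gave a spot only 1.05 to 1.11 times as bright as the mean blank spot. Its normalized signal lay between 13.5 and 14.7 on all 8 arrays, and its deposited values between 1.6 and 3. The groups overlapped in each comparison. Its fitted differences were 0.01 at 4 h (95% interval -0.10 to 0.11) and 0.04 at 24 h (-0.06 to 0.15), on a scale on which a spot this dim can show little.

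Notch3 (probe M300011370), a receptor also used by pericytes and smooth muscle of vessels, gave 16.5 and 16.7 in control qNSCs at 4 h and 18.2 and 17.8 with BafA. At 24 h it gave 16.1 and 16.5 in control qNSCs and 16.9 and 16.4 with BafA. Only the BafA arrays of 4 h stood above the rest, and the difference there was 0.11 ± 0.05 (SE, limma adjusted p = 0.462). At 24 h it was 0.03 (adjusted p = 0.785).

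Jag1 (probe M300005550), a DSL ligand of the Jagged type that activates Notch receptors on neighbouring cells, had the largest difference of the 10 members. Its normalized signal was 15.3 and 14.6 in control qNSCs at 4 h, 18.1 and 16.6 with BafA at 4 h, 15.1 and 16.2 in control qNSCs at 24 h, and 54.7 and 57.2 with BafA at 24 h. The BafA arrays of 24 h stood apart from the other 6, which lay close to the blank spots, and the BafA arrays of 4 h stood above their controls by a small step. At 24 h the difference was 1.84 ± 0.07 (SE, limma adjusted p = 3.14e-16), a 3.58-fold higher normalized signal. In the deposited values, which hold no added constant, the same arrays read 5.2 and 6.9 in control qNSCs and 88.6 and 89.1 with BafA, a ratio of 14.7 of the group means. With control spots this near the blank level, the size of that ratio depends on what is subtracted. Within the scan setting of the 6 arrays the difference was 1.79, and with the setting as a block 1.83. At 4 h the difference was 0.21 ± 0.07 (SE, adjusted p = 0.127), with deposited values of 5.3 and 3 in control qNSCs and 10 and 8 with BafA. This missed the threshold, and it passed with the smaller added constant of 16 (adjusted p = 0.0408) and in the deposited values (0.0497). It did not pass without the trend (0.321). The 4 h difference was 0.24 within 1 scan setting, and lay between 0.15 and 0.27 on leaving out each array in turn. The effect at 24 h exceeded that at 4 h by 1.63 ± 0.09 (SE, adjusted p = 7.63e-12). Control qNSCs of the 2 times overlapped and differed by 0.06 (adjusted p = 0.546).

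Dll1 (probe M200002010), a DSL ligand of the Delta type made by committed progenitors, lay between 21.3 and 24.1 on all 8 arrays. At 4 h the BafA arrays gave 21.5 and 21.6 and the control arrays 21.8 and 21.3, so they overlapped. At 24 h the control arrays gave 24.1 and 22.6, and both BafA arrays lay just below them. The differences were 0.00 at 4 h (95% interval -0.13 to 0.13) and -0.07 at 24 h (-0.20 to 0.06, adjusted p = 0.491), and 0.12 over time in control qNSCs (adjusted p = 0.175).

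Dll3 (probe M200003176), a divergent ligand that is known to act inside the cell against Notch signaling rather than to activate it, rose with time in control qNSCs and was lower with BafA at 24 h. The control arrays gave 15.4 and 15.9 at 4 h and 17.9 and 17.4 at 24 h, and the BafA arrays 15.7 and 14.9 at 4 h and 15.1 and 14.8 at 24 h. The control arrays of 24 h were thus the highest, and the BafA arrays of 24 h lay in or below the range of 4 h. The rise in control qNSCs was 0.17 ± 0.05 (SE, limma adjusted p = 0.0119), and the difference at 24 h was -0.24 ± 0.05 (adjusted p = 0.000968). In the deposited values the group means at 24 h were 10.1 in control qNSCs and 4.25 with BafA, a spot near the blank level. The rise in control qNSCs was 0.22 between the first control arrays and 0.13 between the second ones, each pair sharing a scan setting. It did not pass without control array 1 of 4 h or of 24 h, within 1 scan setting, or without the trend. At 24 h the difference was -0.22 within 1 scan setting. The difference between the times was -0.21 ± 0.07 (SE, adjusted p = 0.0639).

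Dner (probe M200008159), a transmembrane protein of the neuronal and glial surface that was described as a ligand of Notch1 outside the DSL family, fell by 0.88 on the log2 scale at 24 h. The control arrays gave 250.5 and 182.7 at 24 h and the BafA arrays 119.1 and 113.7. At 4 h the control arrays gave 235.4 and 186 and the BafA arrays 164.2 and 162.1. In both cases the BafA arrays were below both control arrays, and the 2 control arrays of each time were far apart, with the first the higher. The difference at 24 h was -0.88 ± 0.17 (SE, limma adjusted p = 0.000223), and within 1 scan setting it was -0.65. At 4 h it was -0.36 ± 0.17 (adjusted p = 0.465), and -0.19 within 1 scan setting and -0.16 with the setting as a block. The effects of the 2 times differed by -0.52 ± 0.24 (SE, adjusted p = 0.168), a difference that passed without control array 2 of 24 h (-0.75, adjusted p = 0.0276) and was -0.29 without control array 1 of 24 h (adjusted p = 0.616). Control qNSCs of the 2 times overlapped, with a difference of 0.03 (adjusted p = 0.917) whose sign changed with the settings.

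Lfng (probe M200003143) adds N-acetylglucosamine to O-fucose on the EGF repeats of Notch receptors, which is known to favour Delta over Jagged ligands. It was lower with BafA at 4 h and higher at 24 h. The control arrays gave 29.6 and 28.8 at 4 h and 29.4 and 28.7 at 24 h. The BafA arrays gave 22.2 and 24.7 at 4 h and 41.8 and 41.5 at 24 h. No array of one BafA group overlapped with its controls or with the other BafA group. The difference at 4 h was -0.32 ± 0.08 (SE, limma adjusted p = 0.0266), and that at 24 h was 0.52 ± 0.08 (adjusted p = 1.16e-05). The effects differed by 0.84 ± 0.11 (SE, adjusted p = 5.33e-06). The call at 4 h was lost on leaving out any of the 4 arrays of 4 h, or one of the 24 h BafA arrays (adjusted p = 0.0551 to 0.479), with the difference then between -0.39 and -0.24. The difference between the times stayed between 0.76 and 0.91 on leaving out each array in turn, and was 0.83 within 1 scan setting. In control qNSCs the change over time was 0.00 (95% interval -0.17 to 0.16).

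Hes1 (probe M200001751), a basic helix-loop-helix repressor that is switched on by NICD and RBPJ and also by BMP and growth factor signals, was higher with BafA at 24 h and rose with time in control qNSCs. The control arrays gave 39.5 and 30.0 at 4 h and 44.6 and 50.5 at 24 h. The BafA arrays gave 49.4 and 44.4 at 4 h and 81.9 and 98.8 at 24 h. The 4 h controls were the lowest and the BafA arrays of 24 h the highest, while the BafA arrays of 4 h and the 24 h controls overlapped. At 24 h the difference was 0.92 ± 0.13 (SE, limma adjusted p = 3.21e-06), a 1.9-fold higher normalized signal, and 0.83 within 1 scan setting. At 4 h it was 0.44 ± 0.13 (adjusted p = 0.0725). That difference passed with the scan setting as a block (0.50, limma adjusted p = 0.0401). It was 0.64 within 1 scan setting and without control array 1 of 4 h. Both of these set the BafA arrays against the same single control array of 4 h, the lower one. Leaving out either control array of 24 h left the 4 h difference at 0.44 and changed only the estimate of the spread. The 4 h difference was 0.24 on leaving out control array 2 of 4 h and 0.37 on leaving out BafA array 1 of 4 h. The rise in control qNSCs was 0.47 ± 0.13 (SE, adjusted p = 0.00572). It was 0.18 between the first control arrays and 0.75 between the second ones, each pair sharing a scan setting, and it did not pass without control array 2 of 4 h (0.27, adjusted p = 0.204). The effects of the 2 times differed by 0.48 ± 0.18 (SE, adjusted p = 0.078), which passed without control array 2 of 4 h (0.68, adjusted p = 0.0191) or of 24 h (0.57, adjusted p = 0.0043). It was 0.28 without control array 1 of 4 h (adjusted p = 0.458) and 0.19 within 1 scan setting (adjusted p = 0.705).

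Hes5 (probe M300018827), a repressor of the same family whose transcription in neural stem cells depends closely on Notch, and whose window above holds GTGGGAA 2 times, did not pass in any comparison. The control arrays gave 51.5 and 56.0 at 4 h and 59.0 and 44.7 at 24 h, and the BafA arrays 50.4 and 47.5 at 4 h and 43.8 and 44.7 at 24 h. The BafA arrays of 4 h were below both controls, and at 24 h the second control array fell among the BafA arrays. The difference was -0.13 ± 0.12 (SE, limma adjusted p = 0.877) at 4 h and -0.22 ± 0.12 (adjusted p = 0.194) at 24 h. Without control array 2 of 24 h it was -0.42 and passed (adjusted p = 0.00421), and within the scan setting of the 6 arrays, which leaves out the first, it was -0.02. Hes1 and Hes5 thus had fitted differences of opposite sign at 24 h, 0.92 and -0.22, and the difference between the 2 genes was not tested.

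**Figure D2:**
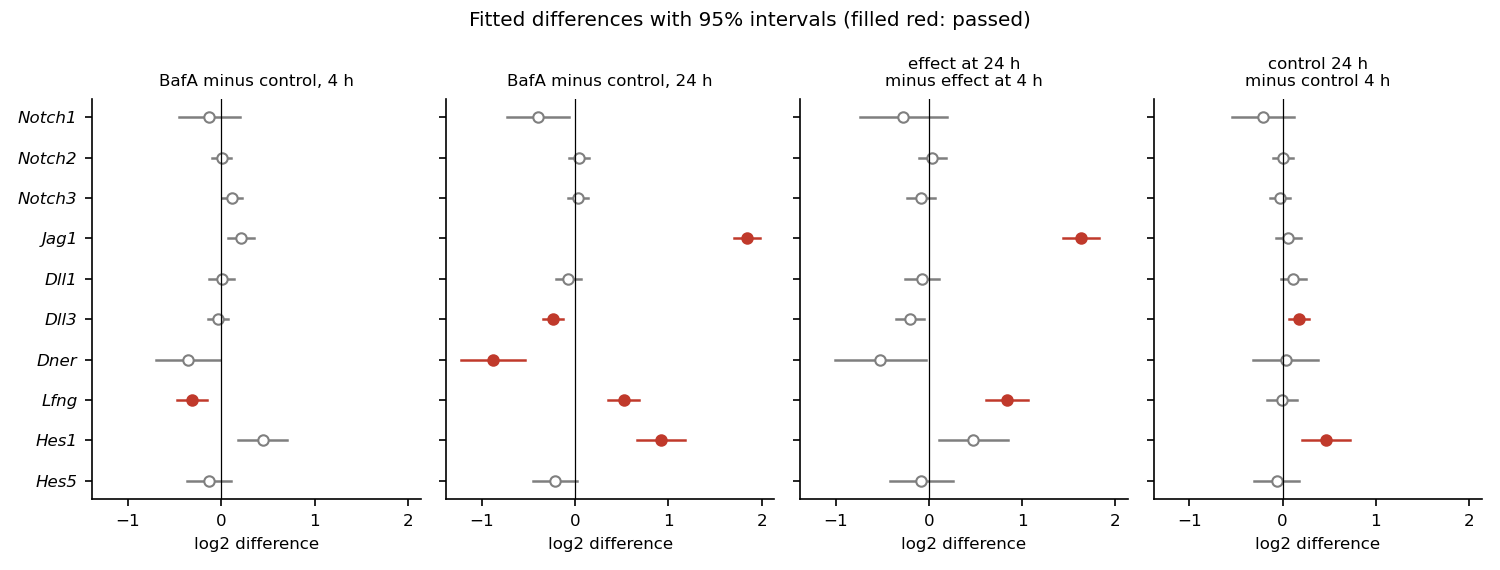
Log2 differences of the 10 Notch genes from the limma fit with their 95% intervals: BafA minus control at 4 h and at 24 h, the effect at 24 h minus that at 4 h, and control qNSCs of 24 h minus those of 4 h. Filled red circles passed at an adjusted p under 0.05 and open grey circles did not. Jag1 lies at 1.84 at 24 h and 1.63 for the difference between the times, and Lfng lies on opposite sides of 0 at 4 h and 24 h.

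Across the 4 conditions, the members that passed fell into different orders. Jag1 was highest with BafA at 24 h, and neither BafA at 4 h nor control qNSCs at 24 h differed from control qNSCs at 4 h beyond the threshold. Hes1 was lowest in control qNSCs at 4 h, at like levels with BafA at 4 h and in control qNSCs at 24 h, and highest with BafA at 24 h. The Hes1 difference between BafA and control at 4 h did not pass. Lfng ran from BafA at 4 h through both control groups, which were level, to BafA at 24 h. Dner was lowest with BafA at 24 h, and its control groups were level. With BafA at 4 h its signal lay between these, but the difference from control at 4 h did not pass. Dll3 was highest in control qNSCs at 24 h, and its other 3 conditions lay close together.

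**Figure D3:**
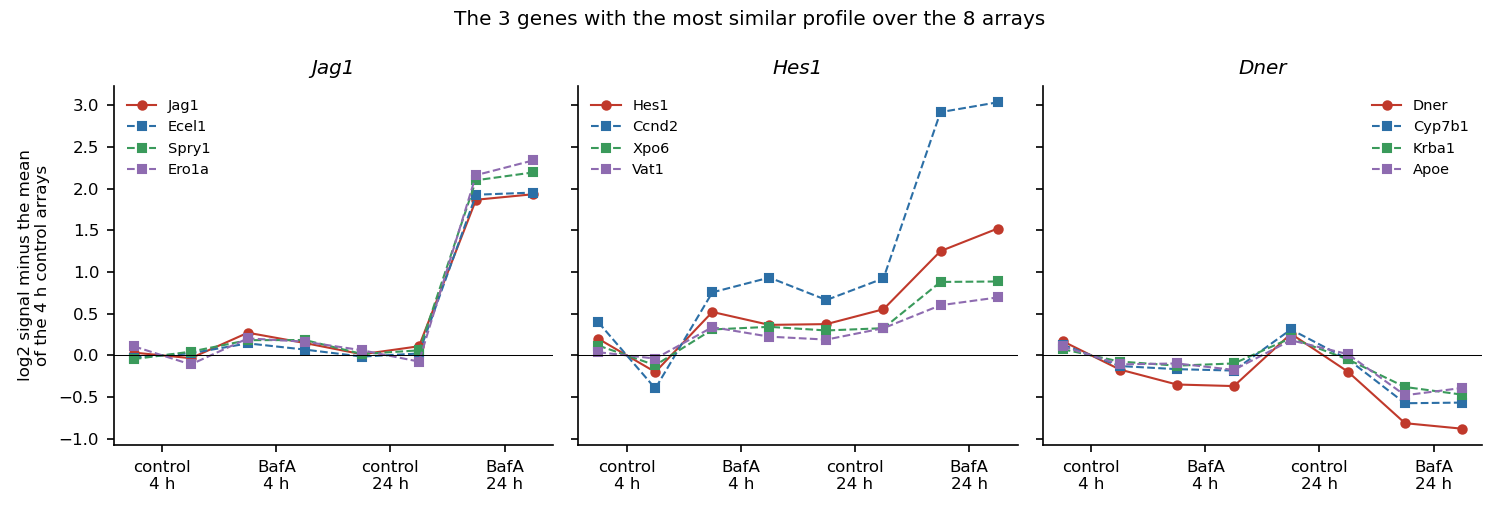
Log2 normalized signal of Jag1, Hes1 and Dner (red circles) and of the 3 genes with the most similar profile to each (squares), on each of the 8 arrays, drawn relative to the mean of the control arrays of 4 h, with 2 arrays per condition in order. Jag1 and its 3 neighbours stay near 0 on 6 arrays and rise by about the same step on the BafA arrays of 24 h.

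Of 8565 named genes with a mean signal above 25, those whose log2 signal over the 8 arrays was most like that of Jag1 were Ecel1 and Spry1 (Pearson r = 0.998 each) and Ero1a (0.996). Spry1 encodes a feedback inhibitor of receptor tyrosine kinase signaling and Ero1a an oxidase of the endoplasmic reticulum. Their differences at 24 h were 1.94, 2.11 and 2.26. Most like Hes1 were Ccnd2 (r = 0.985), which encodes the G1 cyclin D2, Xpo6 (0.984), an exportin, and Vat1 (0.983). Ccnd2 had differences of 0.85 at 4 h and 2.18 at 24 h, and of 0.79 over time in control qNSCs. Most like Dner were Cyp7b1 (r = 0.988), an oxysterol hydroxylase, Krba1 (0.984) and Apoe (0.971), the apolipoprotein of glial cells, with differences of -0.70, -0.51 and -0.53 at 24 h. These correlations describe 8 arrays of 4 conditions on which all genes were hybridised together.

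The rest of the pathway was described with lists by role that held 70 genes with the 10 members, of which 63 were named on the array and 59 were tested, each by 1 probe. Apart from the members, 49 were tested. None of these passed at 4 h in limma, or in the methods' equal-variance test after adjustment, which called 1 of all 20473 probes. Dtx1, Dtx3l and Dtx4 had an unadjusted p under 0.05 in limma (3 of 49, beside 9.9% of all probes). By the equal-variance test 2 of 49 did, beside 1541 of 20473 probes. At 24 h, 7 passed as higher and 7 as lower, and 35 did not pass. The shares of all 14679 named genes that passed were 15% higher and 13.9% lower, near those of the list. Genes above the receptor passed in both directions. Mfng, a sister enzyme of Lfng, was higher (0.33, adjusted p = 0.0158), as was Mib1, the ubiquitin ligase that lets ligands be endocytosed and so pull on the receptor (0.28, adjusted p = 0.00386). Dlk2, a non-canonical ligand, was lower (-0.53, adjusted p = 0.0013).

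Among the gamma-secretase genes, Psenen, a small subunit of the complex, was higher (0.62, adjusted p = 0.0052), and Psen2, a catalytic subunit, and Aph1b, a scaffold subunit, were lower (-0.57 and -0.49, adjusted p = 0.00015 and 0.00312). Of the 10 genes of receptor trafficking and turnover, 3 of the Deltex family of ubiquitin ligases were lower, Dtx3l (-0.84, adjusted p = 1.96e-08), Dtx1 (-0.83, adjusted p = 0.000107) and Dtx4 (-0.79, adjusted p = 0.000541). Fbxw7, which marks NICD for degradation, was higher (0.50, adjusted p = 7.36e-05), as was Itch, a ligase that promotes turnover of the receptor (0.20, adjusted p = 0.0251). Dtx1 is itself a known Notch target. Its normalized signal was 129.9 and 145.9 in control qNSCs at 24 h and 77.2 and 77.8 with BafA, but at 4 h it was 72.5 and 49.7 in control qNSCs and 84.0 and 86.5 with BafA. The BafA arrays were thus above the controls at 4 h and below them at 24 h, and the effects of the 2 times differed by -1.34 (limma adjusted p = 5.14e-05). In the nucleus, Rbpj was higher (0.29, adjusted p = 0.0384), and of the Groucho corepressors that Hes factors recruit, Tle4 was higher (0.33, adjusted p = 0.00639) and Tle3 lower (-0.39, adjusted p = 0.0273).

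Several of these calls were lost on leaving out 1 array, most with differences of a like size. Mfng, Aph1b, Rbpj and Tle3 did not pass without control array 1 of 24 h (adjusted p = 0.0811 to 0.38), and Itch and Tle4 without control array 2 of 24 h (0.0539 to 0.127). Aph1b, Itch, Mfng, Rbpj and Tle3 did not pass without BafA array 1 of 24 h (0.0585 to 0.197), and Itch, Mfng, Mib1, Psenen, Rbpj and Tle4 without BafA array 2 of 24 h (0.0567 to 0.191). Rbpj also did not pass without either BafA array of 4 h (0.0615 and 0.0629), where its difference was 0.29. Mfng was 0.13 and Aph1b -0.31 without control array 1 of 24 h, Mfng was 0.54 without control array 2 of 24 h, and the differences of the others stayed within 1.5 times their value. With the scan setting as a block, Mfng (0.17, adjusted p = 0.114), Rbpj (0.0582) and Tle3 (0.108) did not pass, and within 1 scan setting neither did these (0.306, 0.158 and 0.0734) or Aph1b (0.0747). Mfng was also lost in the deposited values (0.0662), with quantile normalization (0.0718) and without the trend (0.139), Psenen with quantile normalization (0.37, adjusted p = 0.0638), and Itch without the trend (0.0506). Dlk2, Psen2, Fbxw7, Dtx1, Dtx3l and Dtx4 passed whichever array was left out.

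**Figure D4:**
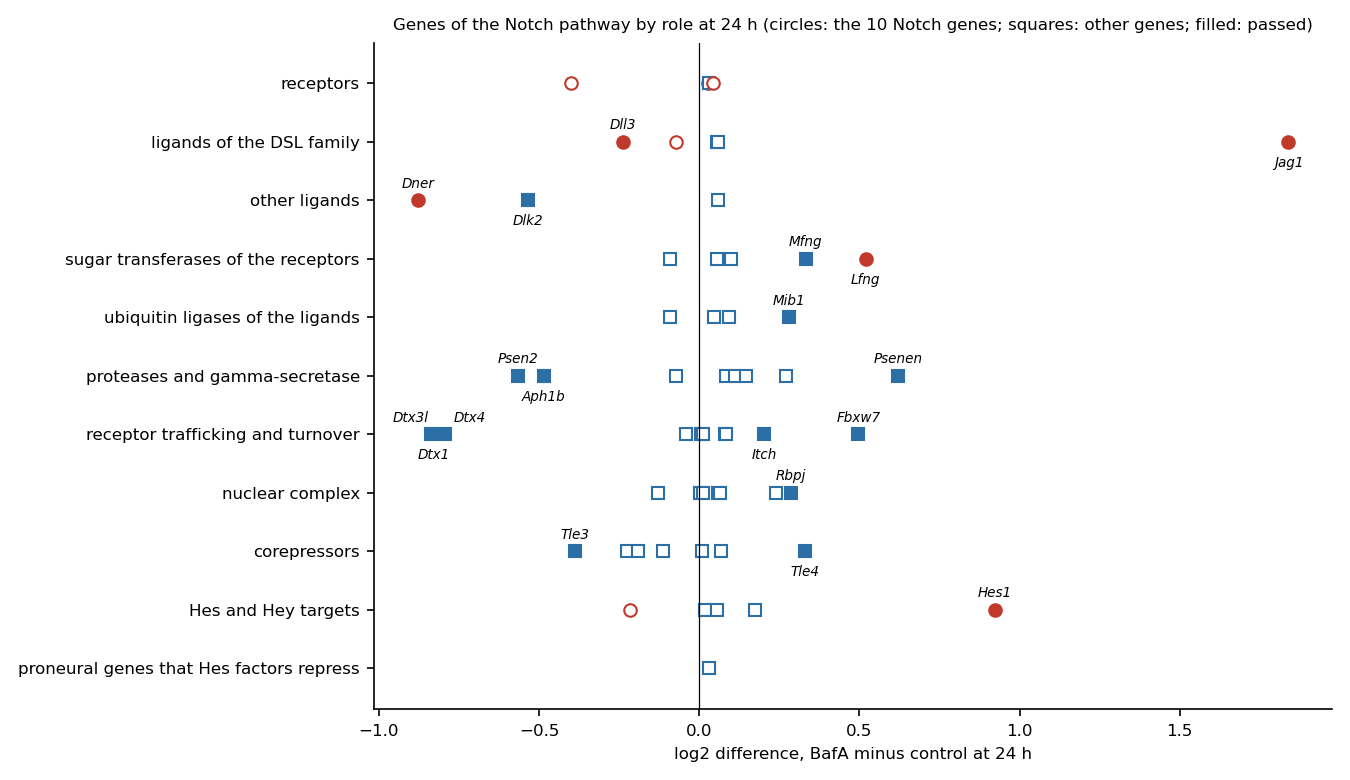
Log2 difference at 24 h (BafA minus control, limma) of the 59 tested genes of the Notch pathway, grouped by role, with red circles for the 10 Notch genes and blue squares for the other 49. Filled symbols passed at an adjusted p under 0.05 and are named. They lie on both sides of 0, from -0.88 for Dner to 1.84 for Jag1.

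Among the other Hes and Hey genes, Hey1 had the largest change over time in control qNSCs, and no difference between BafA and control passed for it. Hey1 encodes a repressor that answers both to Notch and to BMP, and its normalized signal was 1608 and 1568 in control qNSCs at 4 h and 857.4 and 720.7 at 24 h. With BafA it was 1831 and 2073 at 4 h and 761.3 and 1035 at 24 h. Both control arrays of 4 h lay above both of 24 h, and the BafA arrays of 24 h overlapped with their controls. Its fall in control qNSCs was by 1.01 on the log2 scale (adjusted p = 2.48e-05), while Hes1 rose by 0.47 in the same comparison. Hey2 and Hes7 did not pass in any comparison. Hey1 was named after its values were seen. Over the 49 pathway genes other than the members, 12 rose and 8 fell between the control times, and 19.8% and 15.4% of all named genes did so. Of the proneural genes, only Neurog1 was tested, and its BafA differences were 0.10 at 4 h and 0.03 at 24 h, neither of which passed. Neurog1 rose between the control times (0.30, limma adjusted p = 0.00785). Heyl, Neurog2, Neurod1 and Neurod4 lacked a value on at least 1 array, and the remaining genes of the lists were not analysed here.

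The labelled cell type was checked on marker lists, as sums of deposited values per array. The 7 measured markers of neural stem and radial glial cells summed to 34851 to 43325 on all arrays, most of it Vim and Fabp7. With BafA at 24 h, 2 of 7 were higher (Nes 2.02 and Fabp7 0.29 on the log2 scale). Another 4 were lower (Hopx -2.13, Prom1 -1.12, Sox9 -0.52 and Vim -0.38). Nes stood at 85.1 to 86.1 in control qNSCs at 24 h and at 427.7 to 439.7 with BafA. The 5 astrocyte markers summed to 24993 and 25964 in control qNSCs at 24 h and to 10734 and 11534 with BafA. Most of this was Aldoc, and 4 of 5 were lower. At 4 h the astrocyte sums were 14779 and 15969 in control qNSCs and 14607 and 14693 with BafA. The 5 markers of neurons and neuroblasts summed to 510.5 and 618.2 in control qNSCs at 24 h and to 133.2 and 141.2 with BafA. Most of this was Tubb3, and 3 of 5 were lower and 1 higher. At 4 h the neuronal sums were 242.8 and 247.6 in control qNSCs and 211 and 219.3 with BafA. The 5 markers of the oligodendrocyte lineage summed to 423.6 and 443.2 in control qNSCs and 1134 and 1184 with BafA, most of it Olig2, with 1 of 5 higher (Olig2) and 1 lower (Cspg4, -0.34, adjusted p = 0.00148), and with Pdgfra at 1.4 to 4.6. The same list summed to 271.6 and 286 in control qNSCs at 4 h and 395 and 448.7 with BafA. At 4 h Olig2 alone of these lists passed (0.77, adjusted p = 0.00456). The 5 mural and fibroblast markers summed to 84.6 and 94.7 in control qNSCs at 24 h and 53.1 and 55 with BafA. Of these, 1 of 5 was lower (Col1a1). At 4 h the mural and fibroblast sums were 58.2 and 60.6 in control qNSCs and 60.6 and 61.1 with BafA. The control sums of the astrocyte, neuronal and mural lists were thus higher at 24 h than at 4 h. At 24 h some markers and some Notch genes were higher with BafA and others lower, and the part of the markers in the results was not tested. Microglial markers summed to between 82 and 102.4, with Itgam without a value on all 8 arrays, and endothelial markers to between 7.1 and 9.5.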

How the data were processed

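RNA was labelled with Cy5 and hybridised to 8 single-colour arrays, in 4 groups of 2 assigned by the labels. The authors deposited the scanner output, with the intensity of each spot and of the area around it, not normalized. They also deposited a table of signal values, scaled, by their methods, to an array median of 25. The values show that the blank level had been subtracted first. Of the table's columns, 0 had no sample.

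Python 3.11.15 was used to read the spot intensities, and limma 3.58.1 (R 4.3.3) for the fits. Normexp background correction (offset 50, all spots, area around the spot not used) was followed by removal of control spots, scaling of every array to the median of 25, and log2. Of 23473 probes, 20473 had a value on all 8 arrays and were fitted with 1 coefficient per group and eBayes with a trend (4 residual and 19.3 prior degrees of freedom). Folds of dim probes are smaller on this scale than in the deposited values. With 2 arrays per group the smallest p of an exact permutation test is 0.33, so none was run. The fit was run on data simulated with independent normal noise of its own estimated spread. This checked the code and could not show how well 2 arrays per group give the spread. The platform annotation gives 1 symbol to 16631 probes and none to 6842, and 3947 symbols were updated. Replicate numbers were not read as pairs (closing section). Alternatives were the local background, the deposited values, quantile normalization, a filter on dim probes, an offset of 16, eBayes without trend, blocks for replicate and scan setting, the methods' t-test on the same log2 values and leaving out each array.

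The named genes are the 10 members, the non-members of the pathway lists that passed between BafA and control, and the 3 genes most correlated with Jag1, Hes1 and Dner. Other Hes and Hey genes, Neurog1 and cell type markers are named beside them, chosen after their values were seen. Members and lists were chosen with earlier results of these data known. Promoter sequences are those of RefSeq, GRCm38.p6.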

Additional observations from a re-analysis of the deposited data

Results flagged for a closer look

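The BafA effect on Jag1 differed between the times by the test of the difference. It was 1.63 higher at 24 h than at 4 h on the log2 scale (limma adjusted p = 7.63e-12), with both BafA arrays above both control arrays at each time. The BafA effect on Lfng also differed between the times, by 0.84 (limma adjusted p = 5.33e-06), with both BafA arrays below both control arrays at 4 h and above them at 24 h. With 2 arrays per group, no group was large enough to look for single outlying arrays.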

How the results depend on the processing

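Jag1, Hes1, Lfng, Dner and Dll3 passed at 24 h under every setting tried on single genes except the subtraction of the local background (the filter on dim probes removed Dll3), and the count of Notch genes that passed there was 5 to 7 on leaving out each array in turn. Where only 1 array of a group was left, it was taken to vary like the other groups. Subtracting the local background left 0 of the Notch genes in any comparison, and 0 probes at 4 h, 187 at 24 h, 4 for the difference of the effects and 8 between the control times. The local background followed the spot signal (Pearson r of log2 0.963 to 0.982 over the 23473 gene spots of each array), and amounted to 0.46 to 0.636 of the signal in the brightest 10% of spots. With it subtracted, differences of the opposite sign were found at 24 h for Notch2 (-0.08), Lfng (-0.19), Hes5 (0.34), Mfng (-0.009), Aph1b (0.21), Itch (-0.12) and Dtx4 (0.77). The same held for the difference of the effects for Notch2 (-0.10) and Hes5 (0.36), and between the control times for Dner (-0.38), Lfng (0.21) and Hes1 (-0.027).

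At 4 h, where 1 Notch gene and 456 probes passed, 2 Notch genes passed in the deposited values, with an offset of 16 and when the scan setting was a block, and 3 within 1 scan setting. Without the trend 0 Notch genes and 132 probes passed, and 289 probes passed with the filter on dim probes. Leaving out each array gave 0 to 3 Notch genes and 229 to 883 probes. After Benjamini-Hochberg adjustment the methods' t-test called 0 Notch genes at 4 h and 0 at 24 h, beside 1 of 20473 probes at each time. Unadjusted it called 1 Notch gene and 1541 probes at 4 h, and 4 Notch genes and 4058 probes at 24 h. The rule of 2-fold in the deposited values took 3 Notch genes at 24 h. For the difference of the effects, 4 Notch genes passed when the scan setting was a block, beside 3671 of 20473 probes. Between the control times, 1 of the 6 Notch genes left by the filter on dim probes passed, beside 5314 of 11136 probes. Without the trend 0 Notch genes passed there, beside 6148 of 20473 probes. Differences that had not passed changed sign for Dll1 at 4 h with quantile normalization (-0.006), and for Notch1 and Notch2 at 4 h when the scan setting was a block (0.018 and -0.029) or within 1 setting (0.031 and -0.030). They did so too for Hes5 in the difference of the effects within 1 setting (0.18), and for Dner between the control times in the deposited values (-0.001), with quantile normalization (-0.14) and within 1 setting (-0.026). On leaving out each array, the 4 h differences ranged from -0.29 to 0.031 for Notch1, -0.036 to 0.046 for Notch2, -0.013 to 0.018 for Dll1 and -0.07 to 0.006 for Dll3. The differences of the effects ranged from -0.003 to 0.079 for Notch2 and -0.28 to 0.12 for Hes5, and the control changes from -0.029 to 0.041 for Notch2, -0.026 to 0.015 for Lfng, -0.20 to 0.26 for Dner and -0.26 to 0.14 for Hes5. The cause of these changes was not tested.

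The deviations of BafA and control samples with the same replicate number had correlations of -0.223 at 4 h and 0.05 at 24 h over 20473 probes. Across the times they were 0.285 between the control groups and 0.316 between the BafA groups, -0.076 between control at 4 h and BafA at 24 h, and 0.028 between BafA at 4 h and control at 24 h. Not every correlation was above 0.1, so the numbers were not read as pairs. With the replicate block 3 Notch genes (Lfng, with Jag1 at an adjusted p of 0.0413 and Hes1 at 0.00121) and 772 probes passed at 4 h, 5 and 5810 at 24 h, 3 and 3470 for the difference, and 2 and 6909 between the control times. A crossed pairing at 4 h, chosen after seeing the data, gave 2 Notch genes and 772 probes at 4 h. For the difference of the effects it gave 4 Notch genes and 3708 probes. Dim spots limit the depth, since Notch2, Notch3, Dll3 and, outside BafA at 24 h, Jag1 lay near the blank spots.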
